A study of Homo sapiens with 12 samples.

Results

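The genes described here encode TRAIL, its receptors, FAS, the main TNF receptor and the proteins that carry their death signal inside the cell. The list held 10 genes, TNFSF10, TNFRSF10A, TNFRSF10B, TNFRSF10D, FAS, TNFRSF1A, CFLAR, FADD, CASP8 and RIPK1, and 9 of them were among the 10626 genes tested. The gene table used for the array paired no probe set with RIPK1, a kinase of the TNF receptor complex, and RIPK1 was not analysed here. Each gene was read from 1 probe set, the brightest over 12 arrays among those whose names do not end in _x_at, a suffix that marks probes which may bind other transcripts.

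The cells were HK-2, a line of immortalised epithelial cells from the human proximal tubule, grown in medium with epidermal growth factor, hydrocortisone, insulin, transferrin and selenium that all groups shared. The groups were cells exposed to the compound that the labels call Di for 12 h, vehicle-treated control cells at 12 h, Di-exposed cells at 48 h and control cells at 48 h. Each group had 3 arrays, which the labels call biological replicates. What Di is, its dose and its vehicle were not given in the sources used here. Values are log2 expression levels that the authors computed with GCRMA, and n = 3 arrays per group throughout. Nothing says whether replicates came from separate days or passages, so the p-values measure the spread between these arrays.

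Death receptors of the TNF receptor family carry a death domain inside the cell, and a bound ligand brings them together. TRAIL and FAS receptors then recruit the adaptor FADD, which binds caspase-8, and the caspase activates itself and cuts the executioner caspases. The caspase-like protein c-FLIP, encoded by CFLAR, competes for places in this complex, and TNF receptor 1 reaches the same caspase by way of a separate adaptor and otherwise signals to NF-kB. In renal tubular cells these receptors are known from studies of toxic and ischaemic injury.

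The promoter of TNFSF10 is shown because this gene had the largest change of the 9, and that of TNFRSF1A is shown beside it as a member that was higher with Di. Each stretch runs from 250 bases before to 50 bases after a transcription start and is taken from RefSeq on GRCh38.p14. The TNFSF10 stretch is chr3:172523381-172523680 and the TNFRSF1A stretch is chr12:6342027-6342326, both on the minus strand and printed 5′ to 3′ along the gene. Capitals mark matches to GAAANNGAA on either strand, the core of the interferon-stimulated response element.
TNFSF10: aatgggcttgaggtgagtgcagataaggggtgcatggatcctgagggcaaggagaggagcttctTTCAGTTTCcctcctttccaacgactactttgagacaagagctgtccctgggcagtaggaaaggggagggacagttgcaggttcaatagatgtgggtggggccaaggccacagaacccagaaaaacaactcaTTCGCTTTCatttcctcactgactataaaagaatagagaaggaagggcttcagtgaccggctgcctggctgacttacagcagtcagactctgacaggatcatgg
TNFRSF1A: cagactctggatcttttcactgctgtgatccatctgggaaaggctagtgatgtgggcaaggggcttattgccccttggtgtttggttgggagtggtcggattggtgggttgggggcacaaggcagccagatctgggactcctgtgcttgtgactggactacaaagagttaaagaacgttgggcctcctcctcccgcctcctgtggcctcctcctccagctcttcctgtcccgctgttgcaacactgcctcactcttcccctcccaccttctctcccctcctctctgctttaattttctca
The TNFSF10 stretch held 2 matches, at positions -186 to -178 and -54 to -46 from the start, and the TNFRSF1A stretch held 0. Of 35116 promoter stretches of this length, 8.1% held at least 1 match.

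Other motifs were searched on both strands in the same stretches of TNFSF10, TNFRSF1A, FAS, CFLAR, FADD and CASP8. They were TGACNNNGC, the core of the antioxidant response element (13.3% of all promoter stretches), the FOXO element GTAAACA (3.4%) and the GC box GGGCGG (45.0%). None of these 3 was in the TNFSF10 or the TNFRSF1A stretch. The antioxidant core stood at -80 to -72 before 1 of 3 FAS starts, at -196 to -188 before another, and at -171 to -163 before 1 of 4 CFLAR starts. The interferon core was also before another CFLAR start, at -111 to -103, and at 1 of 3 CASP8 starts, at -2 to 6. Of the 4 motifs the FADD stretch held only the GC box, with 2 matches. GC boxes also stood before every FAS start and before part of the CFLAR and CASP8 starts. In both FAS stretches with the antioxidant core a GC box stood at the same distance after it, at -60 to -55 and -176 to -171. The stretches may overlap, so these FAS matches may not be separate sites. All of these are matches of letters and not known binding sites, and no binding was measured. No promoter stretches of TNFRSF10A, TNFRSF10B or TNFRSF10D, the members on chromosome 8, were searched for any motif.

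Array medians lay between 2.97 and 3.06, and 20671 to 21170 probe sets per array exceeded a log2 value of 4, the floor used here for a measurable level. Correlations across probe sets were 0.9946 to 0.9984 within groups and 0.9684 to 0.9969 between groups, and no array duplicated another. The array farthest from the mean of its own group was Di 12 h replicate 2, with a root mean square difference of 0.188, against 0.0951 to 0.152 on the other arrays. The tubular line showed 7 of 15 epithelial markers above the floor on all arrays, among them KRT18, EPCAM and PAX8. The proximal tubule genes GGT1, ANPEP, MME, CUBN, LRP2, AQP1 and SLC34A1, and PAX2, stayed under it on every array, as did all 5 leukocyte and all 4 endothelial markers. Of 5 fibroblast markers PDGFRA, PDGFRB and THY1 stayed under the floor and COL1A1 and DCN were measured. All values of the 9 genes exceeded the floor, the lowest being 6.16 for TNFRSF10A in control at 48 h. The precision of every value is limited by the number of arrays.

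After 48 h of Di the ligand fell steeply, several receptors rose, and the inhibitor and the caspase of the complex fell. TNFSF10, which encodes TRAIL, was 17.8-fold lower in Di than in control. TNFRSF10D, a decoy receptor for TRAIL, was 3.03-fold higher, TNFRSF10B, the death receptor DR5, 1.93-fold higher and TNFRSF1A, TNF receptor 1, 1.89-fold higher. CFLAR was 2.51-fold lower and CASP8 1.39-fold lower. At 12 h no member passed the test.

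In counts, 7 of the 9 measured members were called at 48 h, 4 higher and 3 lower, at an adjusted p under 0.05 in limma. Among all genes tested 50.9% were called, 22.9% higher and 28.0% lower. The median change of the 9 was -0.07 on the log2 scale, against -0.02 for all genes, since rises and falls stood on either side. The median size of change without regard to sign was 0.92 for the 9 and 0.31 for all genes. The members were chosen with earlier results of these data known, so this cannot show that the pathway changed more than other genes. In 7 of the 9 genes the Di arrays did not overlap the control arrays at 48 h, 3 above and 4 below, where 61.6% of all genes had no overlap.

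**Figure D1:**
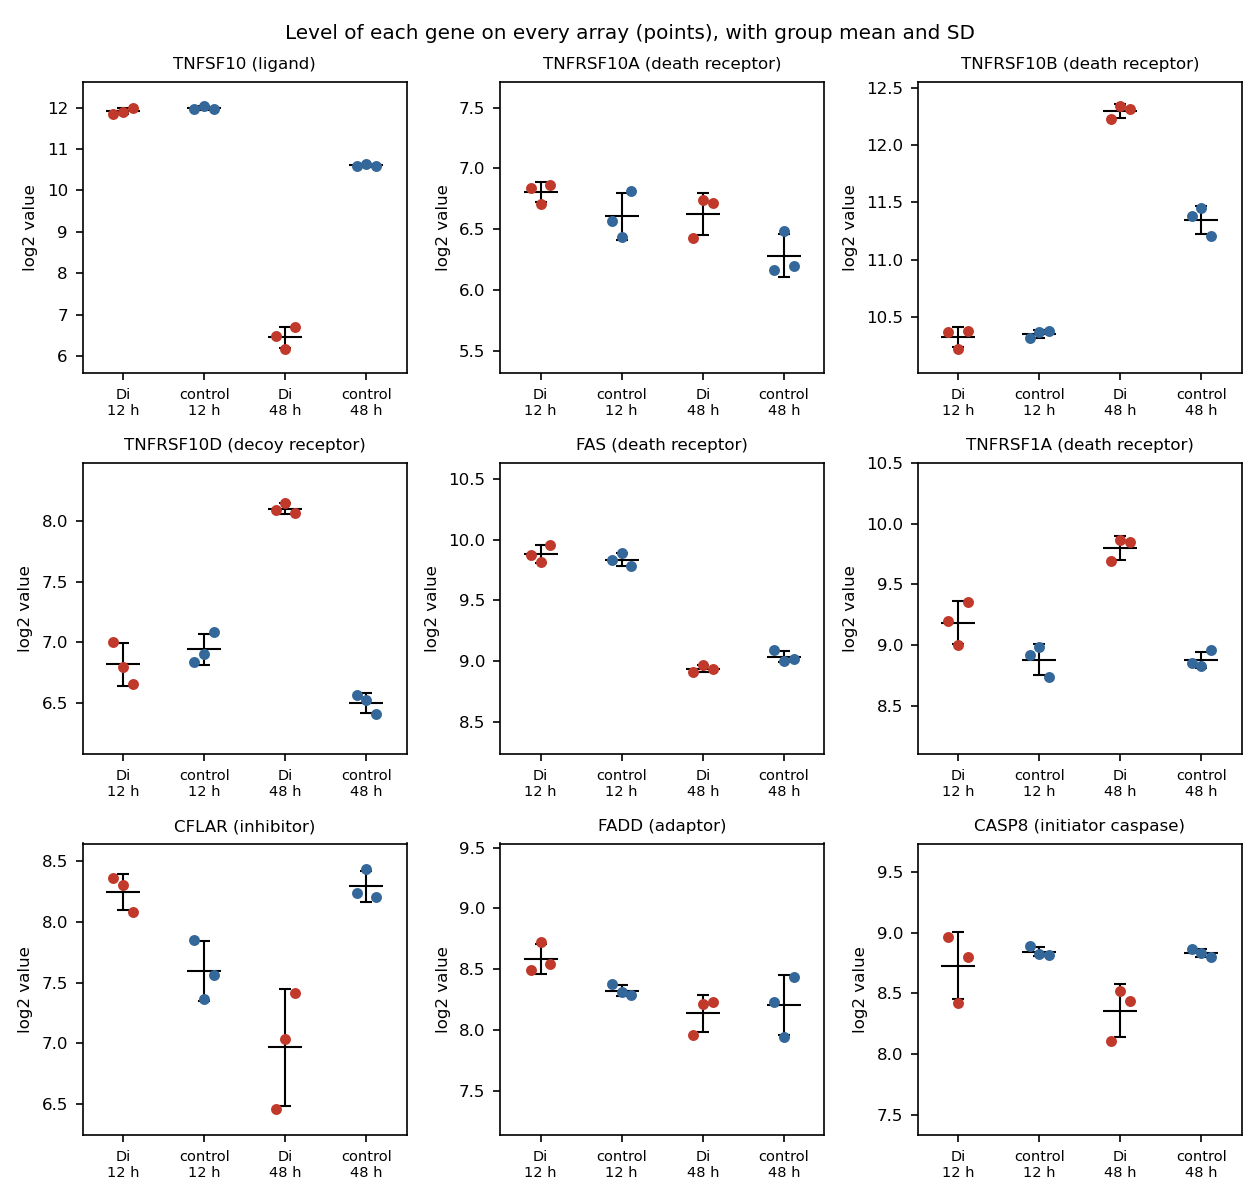
Log2 level of the 9 measured genes on each of the 12 arrays, with Di in red and control in blue. Horizontal lines are group means and bars are SDs of 3 arrays. The y axes differ between panels and do not start at 0. The 3 TNFSF10 values of Di at 48 h, 6.18 to 6.70, lie under those of all other arrays, and the TNFRSF10D values of Di at 48 h, 8.06 to 8.15, lie over those of all others.

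TNFSF10 encodes the membrane-bound and shed ligand TRAIL. At 48 h its log2 level was 6.49, 6.18 and 6.70 on the Di arrays, against 10.59, 10.64 and 10.60 on the control arrays. At 12 h it was 11.83, 11.90 and 11.98 with Di, against 11.96, 12.04 and 11.96 in control. The 48 h groups were far apart, and the 12 h groups overlapped. The change at 48 h was -4.15 ± 0.109 (SE, 95% interval -4.39 to -3.91, adjusted p = 2.11e-10), and at 12 h it was -0.08 ± 0.109 (adjusted p = 0.656).

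In order of level, control at 12 h and Di at 12 h stood highest for TNFSF10 and overlapped, control at 48 h came next and Di at 48 h last, both apart from their neighbours. TNFSF10 was also lower in control cells at 48 h than at 12 h (-1.38 ± 0.109, adjusted p = 1.56e-06). The other kept probe sets of TNFSF10 stood at -4.51 and -4.35 at 48 h. Of the probe sets given here for TNFSF10 none was under the floor on any array, so these folds are measured on both sides. In RNA of whole cultures, fewer cells that express a gene and less RNA per cell cannot be told apart.

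TNFRSF10B encodes DR5, a TRAIL receptor with a working death domain. Its 48 h levels were 12.23, 12.34 and 12.32 with Di, against 11.38, 11.45 and 11.21 in control. The 12 h levels were 10.37, 10.22 and 10.38 with Di, against 10.31, 10.37 and 10.37 in control. The 48 h groups did not overlap and the 12 h groups did. The change was 0.95 ± 0.0781 at 48 h (adjusted p = 1.78e-06) and -0.03 ± 0.0781 at 12 h (adjusted p = 0.846). The gene was also higher in control cells at 48 h than at 12 h (0.995 ± 0.0781, adjusted p = 1.46e-06), so that Di at 48 h, control at 48 h and the 12 h groups formed 3 separate steps.

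TNFRSF10D encodes a TRAIL receptor with a truncated death domain that binds the ligand and passes on no death signal. At 48 h it was 8.09, 8.15 and 8.06 with Di, against 6.56, 6.53 and 6.41 in control. Its 12 h levels were 7.01, 6.80 and 6.66 with Di, against 6.84, 6.90 and 7.09 in control. Di at 48 h stood above every other array, the 12 h groups overlapped, and control at 48 h was lowest without overlap. The change was 1.60 ± 0.0976 at 48 h (95% interval 1.39 to 1.81, adjusted p = 1.54e-07) and -0.12 ± 0.0976 at 12 h (adjusted p = 0.433). Control cells were lower at 48 h than at 12 h (-0.44 ± 0.0976, adjusted p = 0.00269). Its other probe set exceeded the floor on 1 array and was not used.

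TNFRSF10A encodes DR4, the other TRAIL receptor with a working death domain. Its 48 h levels were 6.43, 6.74 and 6.71 with Di, against 6.16, 6.48 and 6.20 in control, and the groups overlapped. The 12 h levels were 6.84, 6.71 and 6.87 with Di, against 6.56, 6.43 and 6.81 in control, again with overlap. The 48 h change of 0.34 ± 0.124 passed narrowly (adjusted p = 0.0383), and the 12 h change of 0.20 ± 0.124 did not (adjusted p = 0.307). The 48 h call was lost with no level filter (adjusted p = 0.0782), in a fit of the 48 h groups alone (0.0539), and without replicate 2 or 3 of Di at 48 h (0.125 and 0.113), replicate 1 or 3 of control at 48 h (0.129 and 0.112) or replicate 1 of control at 12 h (0.0507). The 2 other kept probe sets disagreed at 48 h, at 0.55 and -0.0019, and the brighter of them stood at 0.76 at 12 h (adjusted p = 0.00814). By RefSeq on GRCh38.p14 the genes for DR5, the decoys TNFRSF10C and TNFRSF10D, and DR4 follow each other on chromosome 8, and of these TNFRSF10C stayed under the floor on every array with a highest value of 3.29.

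FAS encodes the receptor for FAS ligand. At 48 h it was 8.91, 8.97 and 8.93 with Di, against 9.09, 9.00 and 9.01 in control. The 12 h values were 9.87, 9.81 and 9.96 with Di, against 9.83, 9.89 and 9.78 in control. The Di arrays at 48 h lay just under the control arrays without overlap, and the 12 h groups overlapped. The change at 48 h was -0.10 ± 0.0634 (95% interval -0.24 to 0.04, adjusted p = 0.22) and at 12 h 0.05 ± 0.0634 (adjusted p = 0.664), and neither passed. The second brightest probe set was called lower at 48 h (-0.27, adjusted p = 0.024), and the 2 others stood at -0.10 and -0.01. In control cells FAS was lower at 48 h than at 12 h (-0.80 ± 0.0634, adjusted p = 1.58e-06).

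TNFRSF1A encodes TNF receptor 1, the main receptor for soluble TNF. At 48 h it was 9.69, 9.87 and 9.85 with Di, against 8.85, 8.83 and 8.96 in control. At 12 h it was 9.20, 9.00 and 9.36 with Di, against 8.92, 8.98 and 8.74 in control. The Di arrays stood above the control arrays at both times, at 12 h by a small margin. The change was 0.92 ± 0.1 at 48 h (95% interval 0.70 to 1.14, adjusted p = 1.62e-05) and 0.30 ± 0.1 at 12 h (adjusted p = 0.0681). The 12 h difference passed with arrays centred on their medians (adjusted p = 0.0229), with quantile normalization (0.0365), with trend and robust moderation (0.0492) and without replicate 2 of Di at 12 h (0.025). Control cells at 48 h and 12 h differed by -0.0025 ± 0.1 (95% interval -0.22 to 0.22). The array held 1 probe set for this gene.

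CFLAR encodes c-FLIP, which resembles caspase-8 but lacks its protease activity and limits signalling from the complex. At 48 h its level was 6.46, 7.03 and 7.41 with Di, against 8.24, 8.43 and 8.20 in control. Earlier, at 12 h, it was 8.36, 8.30 and 8.08 with Di, against 7.85, 7.37 and 7.57 in control. Di lay below control at 48 h and above it at 12 h, with no overlap at either time, and the Di arrays at 48 h spread more than any other group of the gene (SD 0.481). The change was -1.33 ± 0.207 at 48 h (95% interval -1.78 to -0.87, adjusted p = 0.000254). The 12 h difference of 0.65 ± 0.207 missed the threshold (adjusted p = 0.0595). It passed with a floor of 6 (adjusted p = 0.0461), quantile normalization (0.0288), centred arrays (0.0297), trend and robust moderation (0.0433), and without replicate 1 or 3 of Di at 48 h (0.0162 and 0.0304).

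The array held 10 other kept probe sets for CFLAR, 9 of them with the suffix _x_at. All 10 were lower with Di at 48 h, by -1.29 to -0.29, and 9 of 10 were higher at 12 h, over a range of -0.02 to 0.62. The brightest of all, an _x_at set, stood at -0.59 at 48 h and 0.16 at 12 h. In control cells the reported probe set was higher at 48 h than at 12 h (0.70 ± 0.207, adjusted p = 0.0148). The brightest probe set was lower at 48 h there (-0.37, adjusted p = 0.00282), and the mean of all kept probe sets was 0.06 (adjusted p = 0.724), so the direction in control cells depended on the probe set. The call was also lost without replicate 2 of control at 12 h (adjusted p = 0.0613) or at 48 h (0.0532). Which transcripts of CFLAR each probe set reads was not analysed here.

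**Figure D2:**
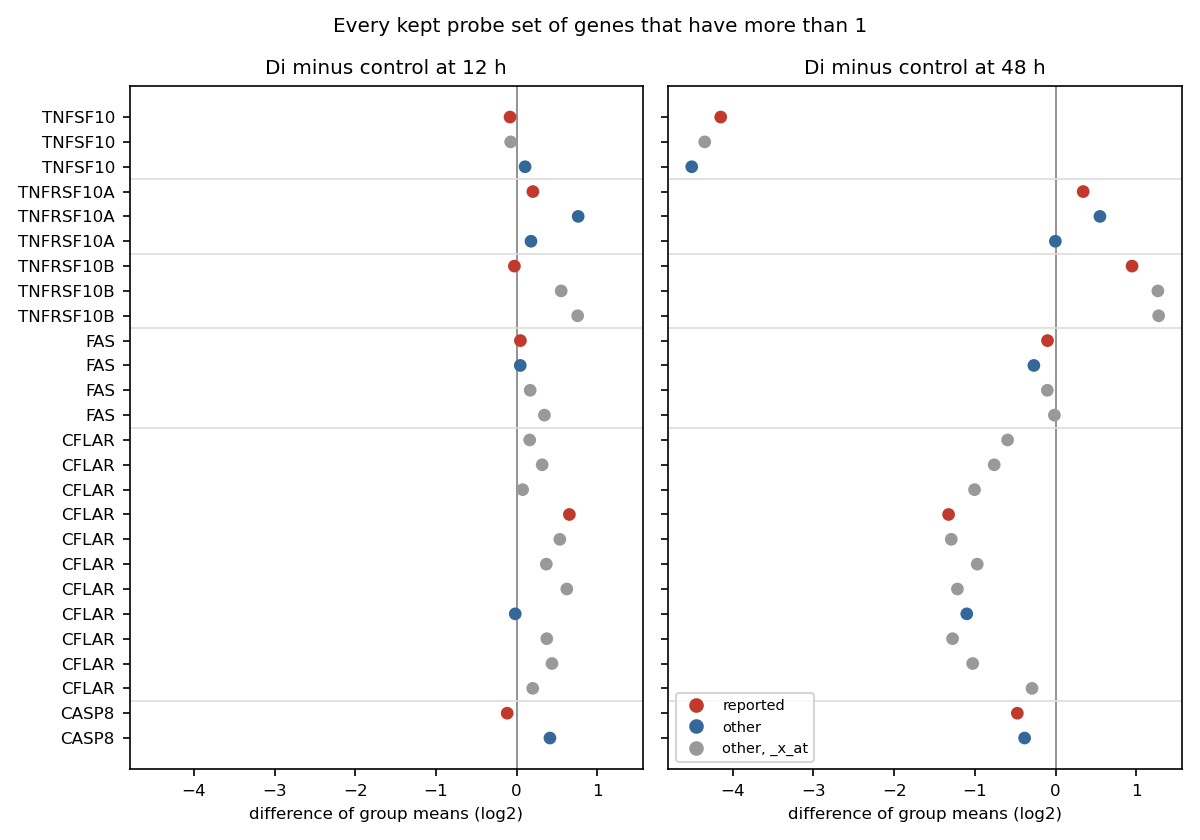
Difference of group means (log2), Di minus control, at 12 h (left) and 48 h (right) for every kept probe set of the 6 genes that had more than 1. Rows run from the brightest probe set of a gene to the dimmest. Red marks the reported probe set, blue another, and grey another whose name ends in _x_at. At 48 h every TNFSF10 and CFLAR point lies left of 0 and every TNFRSF10B point right of it, and at 12 h the points of TNFRSF10B range from -0.03 to 0.76.

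For TNFRSF10B at 12 h the 2 other kept probe sets, both of the _x_at kind, stood at 0.55 and 0.76, unlike the reported one, and at 48 h at 1.27 and 1.28. The mean of the kept probe sets of TNFRSF10B was called higher at 12 h (0.43, adjusted p = 0.0347). With that mean TNFRSF10A was called as well (0.38, adjusted p = 0.0133). The 12 h reading of both TRAIL death receptors therefore depended on the probe set, while at 48 h that of TNFRSF10B did not change sign.

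FADD encodes the adaptor that links the death domains of FAS and the TRAIL receptors to caspase-8. At 48 h it was 7.96, 8.22 and 8.23 with Di, against 8.23, 7.94 and 8.44 in control. At 12 h it was 8.49, 8.72 and 8.54 with Di, against 8.37, 8.31 and 8.29 in control. The groups overlapped at 48 h, and at 12 h Di lay above control. Neither change passed, at -0.07 ± 0.123 (95% interval -0.34 to 0.20, adjusted p = 0.677) at 48 h and 0.26 ± 0.123 (95% interval -0.01 to 0.53, adjusted p = 0.176) at 12 h. The 48 h value turned to 0.02 without replicate 1 of Di at 48 h and to 0.05 without replicate 3 of control at 48 h. The array held 1 probe set for it.

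CASP8 encodes the initiator caspase of the complex. At 48 h it was 8.11, 8.52 and 8.44 with Di, against 8.86, 8.83 and 8.79 in control. The 12 h levels stood at 8.96, 8.42 and 8.80 with Di, against 8.89, 8.83 and 8.82 in control. The Di arrays were all lower at 48 h, and at 12 h they reached above and below the control arrays. The change was -0.47 ± 0.135 at 48 h (95% interval -0.77 to -0.18, adjusted p = 0.012) and -0.12 ± 0.135 at 12 h (adjusted p = 0.604). The other kept probe set stood at -0.38 at 48 h (adjusted p = 0.0786) and at 0.41 at 12 h (adjusted p = 0.124). RefSeq on GRCh38.p14 places CFLAR, CASP10 and CASP8 in a row on chromosome 2. CASP10, a close relative of CASP8, stood at 0.10 ± 0.0946 at 48 h (adjusted p = 0.399). Its levels there were 4.74, 4.35 and 4.39 with Di, against 4.39, 4.38 and 4.40 in control. These lie just over the floor of 4, where a fall could hardly show.

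**Figure D3:**
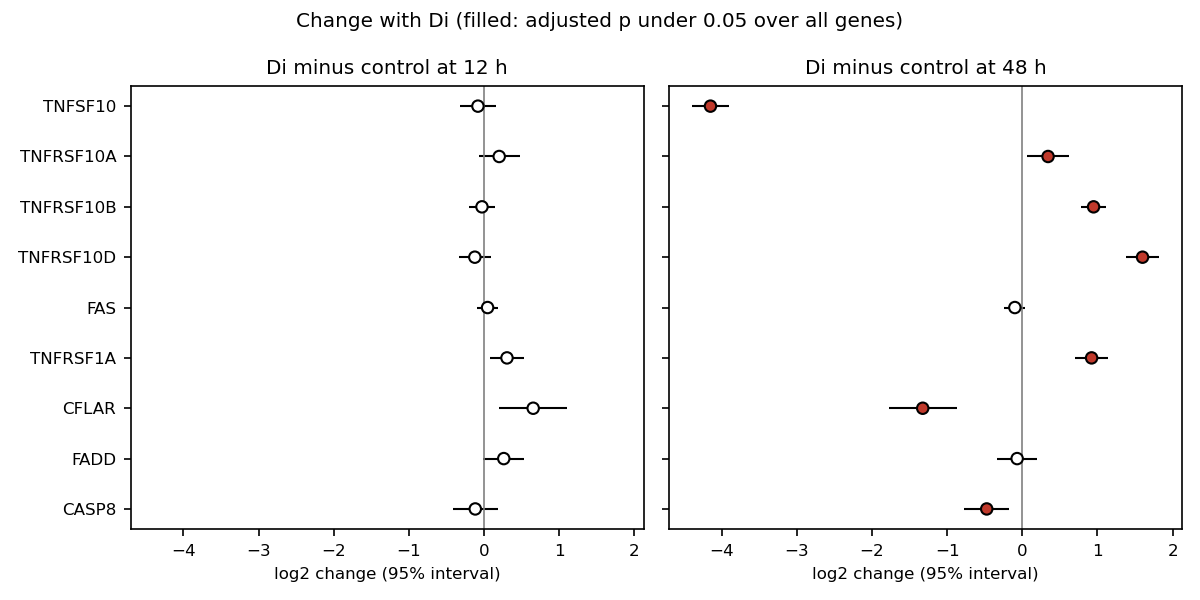
Log2 change with Di at 12 h (left) and 48 h (right) for the 9 genes. Points are differences of group means from limma, bars are 95% intervals, and filled points have an adjusted p under 0.05 over all genes tested. No point is filled at 12 h and 7 are at 48 h, from -4.15 for TNFSF10 to 1.60 for TNFRSF10D.

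At 12 h 0 of the 9 members were called, against 13.7% of all genes. At an unadjusted p under 0.05 there were 2, TNFRSF1A and CFLAR. The Di arrays did not overlap the control arrays in 3 members, TNFRSF1A, CFLAR and FADD, all above. Of all 10626 genes 34.8% had no overlap, 1184 genes above and 2513 below. The median change was 0.05 for the 9 and -0.06 for all genes. Between 0 and 2 members were called over the alternatives. Actin's 3′ probe set exceeded its 5′ one, a sign of RNA quality, by 1.22 ± 0.239 (SD) on the 12 h Di arrays against 1.71 ± 0.178 on their controls, and by 1.41 ± 0.0776 on the 48 h Di arrays against 1.33 ± 0.128 on their controls. Its part in the 12 h values was not tested.

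Between control cells at 48 h and at 12 h, 6 of the 9 members were called, 2 higher and 4 lower. Among all genes 52.9% were called, 21.9% higher and 31.0% lower. TNFRSF10B and CFLAR were the higher ones, and TNFSF10, FAS, TNFRSF10D and TNFRSF10A (-0.32 ± 0.124, adjusted p = 0.0481) were lower. TNFRSF10A kept this call in 8 of its 22 alternatives. FADD stood at -0.12 ± 0.123 and CASP8 at -0.01 ± 0.135. This comparison uses the same control arrays at 48 h as the Di comparison at that time, so the values of a gene in the pair of comparisons are not independent.

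The change with Di differed between the times in 5 of the 9 members by the interaction term of the fit, 3 with a higher and 2 with a lower change at 48 h, where 38.3% of all genes did. TNFSF10 differed by -4.07 ± 0.155 (adjusted p = 1.5e-08), TNFRSF10D by 1.72 ± 0.138 (adjusted p = 4.3e-06) and TNFRSF10B by 0.98 ± 0.11 (adjusted p = 5.17e-05). CFLAR differed by -1.98 ± 0.292 (adjusted p = 0.000336) and TNFRSF1A by 0.62 ± 0.142 (adjusted p = 0.00551). The term did not pass for TNFRSF10A (0.14), FAS (-0.15), FADD (-0.33) or CASP8 (-0.36). With the second probe set of each gene TNFRSF10B stood at 0.72 (adjusted p = 0.0739), CFLAR at -1.08 (adjusted p = 0.158) and CASP8 at -0.80 (adjusted p = 0.0213). CASP8 also passed with the mean of its probe sets (-0.58, adjusted p = 0.0297) and once Di 12 h replicate 2 was left out (-0.51, adjusted p = 0.0203). FADD passed without replicate 2 of control at 48 h (-0.46, adjusted p = 0.0355).

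The genes whose levels followed a member most closely over the 12 arrays are given as a description, since all points share the 4 groups. For TNFSF10 they were SGK1, a kinase induced by steroids and stress (Pearson r = 0.9987), SEMA6A, a semaphorin (0.9965), and DEFB1, the epithelial defensin (0.9964). Their changes with Di at 48 h were -3.42 for SGK1, -2.51 for SEMA6A and -3.65 for DEFB1. For TNFRSF10B they were LCN2, the injury marker NGAL (0.9956), SDCBP, the scaffold syntenin (0.9955), and SGTB, a cochaperone (0.9941). LCN2 rose by a log2 value of 1.80 at 48 h (adjusted p = 2.99e-08), SGTB by 1.47 and SDCBP by 0.45.

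For FAS they were the replication factor MCM10 (0.9950), the cytidine deaminase APOBEC3B (0.9946) and the exonuclease EXO1 (0.9939), none of which passed at 48 h, with changes of -0.25 to -0.18. CFLAR had looser matches, GON7, a subunit of a tRNA-modifying complex (0.9133), ABHD10, a mitochondrial hydrolase (0.9122), and SDR39U1 (0.9037). Their changes at 48 h were -1.16, -0.72 and -0.51, all called.

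Other genes of the pathway were taken from 6 lists of 63 genes, of which 56 had a probe set and 42 passed the level filter. At 48 h 12 of the 42 were higher and 10 lower (52.4% called, against 50.9% of all genes), with a median change of 0.10. At 12 h 1 was higher and 2 lower (7.1% called, against 13.7% of all genes). In control cells 10 were higher and 12 lower at 48 h than at 12 h (52.4%, against 52.9%), and the interaction was called for 9 with a higher and 9 with a lower change at 48 h (42.9%, against 38.3%). TNFSF12, TNFRSF6B, TRAF2, BIRC3 and SPATA2 were not analysed here.

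Of the other ligands 1 of 6 with a probe set was measured. LTB, which encodes lymphotoxin beta, was 4.14, 3.95 and 3.85 with Di at 48 h, against 5.23, 5.86 and 5.45 in control. The groups were apart, and LTB was at least 2.85-fold lower with Di, the bound being set by the floor (adjusted p = 7.71e-06). In control cells LTB was higher at 48 h than at 12 h (0.75 ± 0.152, adjusted p = 0.00161). TNF, FASLG, LTA, TNFSF14 and TNFSF15 stayed under the floor on every array, with a highest value of 1.89 for TNF and 2.30 for FASLG, the ligand of FAS.

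All 3 other receptors that were measured were called higher with Di than in control at 48 h, where 22.9% of all genes were. TNFRSF12A, the TWEAK receptor Fn14, was 9.75, 9.85 and 9.87 with Di, against 8.23, 8.14 and 8.31 in control (1.60 ± 0.0877, adjusted p = 7.11e-08). It was the 1 gene of these lists that was higher with Di at 12 h as well, at 8.93, 9.15 and 9.08 with Di, against 8.33, 8.32 and 8.10 in control (0.80 ± 0.0877, adjusted p = 0.000712). The groups did not overlap at either time.

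TNFRSF21, the death receptor DR6, was 10.65, 10.48 and 10.38 with Di at 48 h, against 9.20, 9.14 and 9.16 in control (1.33 ± 0.0927, adjusted p = 4.4e-07). In control cells TNFRSF21 was lower at 48 h than at 12 h (-1.36 ± 0.0927), and its Di arrays at 48 h lay near the 12 h levels, with a mean of 10.50 against 10.60 in Di at 12 h. LTBR, the lymphotoxin beta receptor, rose by 0.52 ± 0.0778 at 48 h (adjusted p = 0.000178) and by 0.22 with time in control cells (adjusted p = 0.0335). That second call was lost under 8 of its 21 alternatives, among them the replicate block and centred arrays. TNFRSF1B, TNFRSF11B, TNFRSF25 and TNFRSF10C stayed under the floor.

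Among 12 measured adaptors and regulators of the complex, 2 were higher and 2 lower at 48 h, where 50.9% of all genes were called. PEA15, which binds FADD and caspase-8 through its death effector domain and restrains them, was 11.60, 11.49 and 11.56 with Di, against 10.39, 10.38 and 10.42 in control (1.15 ± 0.0658, adjusted p = 9.49e-08). FAIM, an inhibitor of FAS-induced death, was 8.79, 9.14 and 9.01 with Di, against 9.93, 10.01 and 9.97 in control (-0.99 ± 0.133, adjusted p = 8.51e-05). Neither pair of groups overlapped. At 12 h FAF1, which binds FAS, was called lower (-0.43 ± 0.0728, adjusted p = 0.00506), a call lost with the mean of its probe sets (-0.14, adjusted p = 0.393). In control cells the ubiquitin ligase ITCH, which acts on c-FLIP, was higher at 48 h than at 12 h (0.99 ± 0.142), and CASP8AP2, which binds caspase-8, was lower (-0.85 ± 0.0911).

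Of 14 measured genes of the ubiquitin and kinase machinery around TNF receptor 1, 4 were higher and 2 lower at 48 h. Over all genes 22.9% were higher and 28.0% lower at that time. RBCK1, a subunit of the linear ubiquitin ligase, was 11.50, 11.47 and 11.54 with Di, against 10.75, 10.64 and 10.72 in control (0.80 ± 0.0701, adjusted p = 2.96e-06). IKBKG, the NEMO subunit that reads these chains, was 5.46, 5.63 and 5.26 with Di, against 4.64, 5.04 and 5.02 in control (0.55 ± 0.146, adjusted p = 0.00838). Both were higher on every Di array. Among the other subunits of the linear ubiquitin ligase, SHARPIN was called lower at 48 h (-0.22 ± 0.0764, adjusted p = 0.03). RNF31 stayed under the floor on every array, with a highest value of 2.45. At 12 h MAP3K7, the kinase TAK1, was called lower (-0.33 ± 0.0967, adjusted p = 0.0474). That call was lost in 16 of its 21 alternatives, among them any run without a 12 h array, and with the probe set that is brightest when _x_at sets are allowed the value was 0.15. RBCK1 (1.29 ± 0.0701) and the deubiquitinase CYLD (0.92 ± 0.0936) were higher at 48 h than at 12 h in control cells.

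Of 10 measured executioners and mitochondrial proteins, 3 were higher and 4 lower at 48 h, and 0 were called at 12 h. Over all genes 22.9% were higher and 28.0% lower at 48 h, and 13.7% were called at 12 h. The 3 higher ones at 48 h were BID (0.59), DIABLO (0.30) and CYCS (0.29), and the 2 largest falls are given next. CASP6, an executioner caspase, was 7.64, 7.76 and 7.82 with Di, against 9.23, 9.32 and 9.20 in control (-1.51 ± 0.0737, adjusted p = 2.86e-08). DFFB, the nuclease that cuts DNA in apoptosis, was 3.19, 3.52 and 3.49 with Di, against 4.80, 4.87 and 4.98 in control, at least 1.84-fold lower by the floor (adjusted p = 1.72e-05). The groups of both genes were apart. In control cells APAF1, the scaffold of the apoptosome, fell with time (-1.32 ± 0.124), as did CASP6 (-0.80 ± 0.0737).

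Of the necroptosis genes MLKL and PGAM5 were measured, while RIPK3 and ZBP1 stayed under the floor with highest values of 2.26 and 2.86. MLKL, the pore-forming pseudokinase of necroptosis, was 5.87, 6.46 and 6.50 with Di at 48 h, against 6.88, 6.96 and 6.73 in control (-0.58 ± 0.181, adjusted p = 0.0197). Its Di arrays were all lower, but the call was lost with no filter (adjusted p = 0.053) and without replicate 1 of Di (0.0717) or replicate 1 or 2 of control (0.0537 and 0.0641) at 48 h. PGAM5, a mitochondrial phosphatase, was lower in control cells at 48 h than at 12 h (-0.90 ± 0.148, adjusted p = 0.000382).

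**Figure D4:**
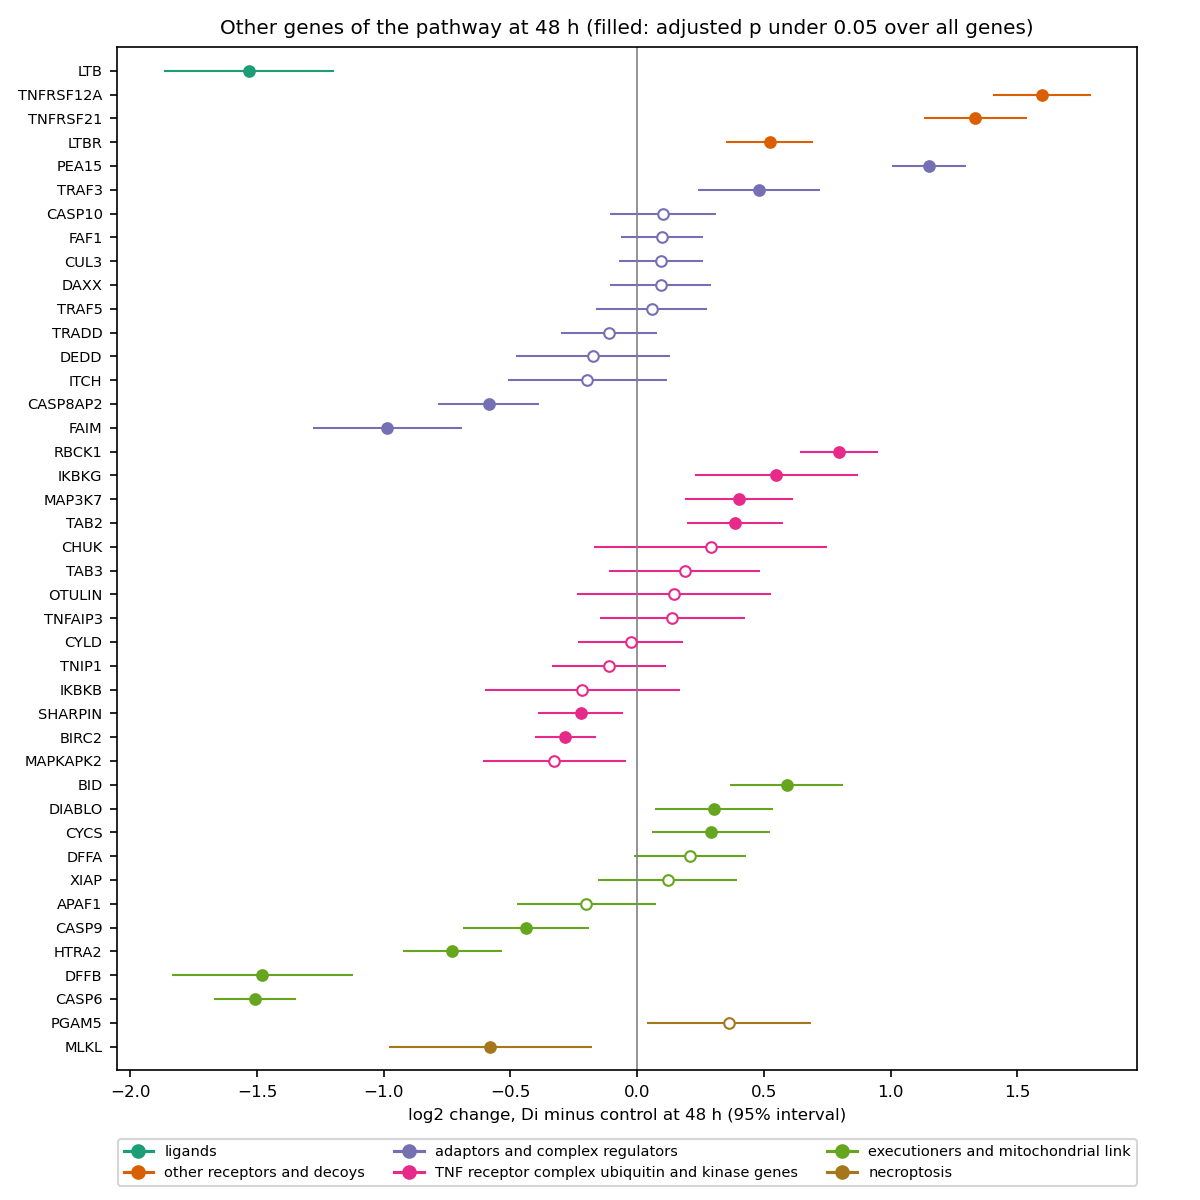
Log2 change at 48 h, Di minus control, for the 42 measured genes of the 6 pathway lists, coloured by list and ordered by size within it. Points are differences of group means from limma with 95% intervals, and filled points have an adjusted p under 0.05 over all genes tested. The 3 receptors all lie right of 0, at 0.52 to 1.60, and the lowest points are LTB, CASP6 and DFFB. The values of LTB and DFFB rest partly on Di levels under the floor.

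Marker genes moved at 48 h beside these values. The summed linear level of the 5 fibroblast markers was 542.9 to 660.7 with Di at 48 h, against 1086.3 to 1135.0 in control, and at 12 h 2240.5 to 2386.5 with Di, against 2240.6 to 2548.8 in control. DCN, which encodes decorin, fell at 48 h (-1.01 ± 0.0854, adjusted p = 2.12e-06), while COL1A1 did not pass (-0.16). The sum of the 15 tubular markers was 13284.6 to 14504.4 with Di at 48 h, against 15369.3 to 17328.6 in control. Of the 7 measured 2 were higher and 3 lower, where 22.9% of all genes were higher and 28.0% lower. The cadherins CDH1 (-1.33 ± 0.266) and CDH2 (-0.98 ± 0.0812) and the adhesion protein EPCAM (-0.65 ± 0.164) were lower. PAX8 (0.39 ± 0.0795, adjusted p = 0.00166) and KRT18 (0.20 ± 0.0762, adjusted p = 0.0459) were higher. KRT18 passed narrowly and was read from an _x_at probe set. The part of these shifts in the values of the death receptor genes was not tested. The leukocyte and endothelial lists stayed under the floor on all arrays, with sums of 28.0 to 30.2 and 23.9 to 27.2.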

How the data were processed

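Total RNA of HK-2 cells from 4 groups of 3 arrays was labelled and hybridised to Affymetrix arrays, per the labels' protocols. The deposited table holds log2 expression values for 54675 probe sets, which the authors made with GCRMA, per the submitters' processing notes. GCRMA corrects for background with probe sequence, applies quantile normalization and summarises each probe set, so a uniform shift in RNA content is removed. No further normalization was applied. Arrays give no counting depth.

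Left out were 62 control probe sets, and by the platform annotation 41091 of the rest named a single gene, 1801 named several and 11721 named none. Probe sets had to exceed log2 4 on at least 3 of 12 arrays (18957 with a single gene did). Each gene was then read from 1 of them, first those not ending in _x_at and then the highest mean, which left 10626 genes. The linear model held a mean for each group over the 12 arrays and was fitted by lmFit and moderated by eBayes in limma 3.58.1 under R 4.3.3, with two-sided tests. Benjamini-Hochberg adjustment ran over all 10626 genes, and calls were made under 0.05. Changes carry SEs of the fit, and group means carry SDs. Where a group mean lay under 4, the fold is a bound from the floor.

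The members, the pathway lists and the tests were chosen with earlier results of these data known. All members are named, and in each pathway list the 2 called genes with the largest change in a comparison. The executioner genes called higher at 48 h and SHARPIN are named besides. The fit was tested on simulated data. Alternatives were other filters, normalizations, probe set rules, moderation, fits of fewer arrays, the replicate number as a block, and each array left out. Plots were made in matplotlib 3.10.9 (Python 3.11.15).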

Additional observations from a re-analysis of the deposited data

Results flagged for a closer look

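Genes are listed here where the change with Di differed between 48 h and 12 h by the interaction term of the limma fit, among the members and the pathway genes named above. Each value is the log2 change with Di at 48 h minus that at 12 h, and 38.3% of all genes tested passed. Among the members it was -4.07 for TNFSF10, -1.98 for CFLAR, 0.62 for TNFRSF1A, 0.98 for TNFRSF10B and 1.72 for TNFRSF10D. CFLAR was the member whose Di arrays, on the reported probe set, lay above control at 12 h and below it at 48 h on every array. On its second and on its brightest probe set the 12 h groups overlapped, and the 12 h change did not pass (adjusted p = 0.0595). With the second probe set of each gene the interaction call was lost for CFLAR (-1.08, adjusted p = 0.158) and TNFRSF10B (0.72, adjusted p = 0.0739).

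Among the other genes the value was higher for the receptors TNFRSF21 (1.27), TNFRSF12A (0.80) and LTBR (0.31), for PEA15 (1.08), MAP3K7 (0.73), RBCK1 (0.67) and FAF1 (0.53). It was lower for CASP6 (-1.52), LTB (-1.30), DFFB (-1.26), FAIM (-0.90), MLKL (-0.75), ITCH (-0.56) and CASP8AP2 (-0.40). The values of LTB and DFFB rest partly on levels under the floor. MAP3K7 lost this call with the mean of its probe sets (0.21, adjusted p = 0.0623) and with _x_at probe sets allowed (0.25, adjusted p = 0.2). MLKL lost it without any of 7 single arrays, with the replicate block and with no filter (adjusted p between 0.0595 and 0.0939). In the limma fit LTBR and ITCH passed this term narrowly (adjusted p = 0.0478 and 0.0486). Alternatives for this term were not examined for LTBR, ITCH, FAF1 and CASP8AP2, so how firm those calls are is not known.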

How the results depend on the processing

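The member count at 12 h, 0 in the report, was 1 with a floor of 6, 2 with quantile normalization, 2 with centred arrays, 2 with trend and robust moderation, 2 with the mean of all kept probe sets, and 0 to 1 without single arrays. The 1453 genes called at 12 h became 575 with only the 12 h arrays and 745 to 1457 without single arrays (745 without control 12 h replicate 2, 778 without control 12 h replicate 3). Centring made 45.4% of the 12 h calls higher, against 28.5%. Member counts at 48 h stayed at 6 to 7 without single arrays. Correlations of deviations were -0.370 to 0.156 for same-numbered arrays, against -0.345 to 0.389 for differently numbered ones. They cannot show whether same-numbered arrays shared a culture or day. With the replicate block 0 members were called at 12 h, 7 at 48 h, 5 by the interaction and 5 with time in control.

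Signs turned only for small or probe-dependent values, and the cause was not tested. At 12 h the second probe set gave 0.10 for TNFSF10, 0.55 for TNFRSF10B, -0.017 for CFLAR and 0.41 for CASP8. The mean of probe sets gave 0.43 for TNFRSF10B and 0.15 for CASP8, centring 0.036 for TNFRSF10B, and _x_at sets 0.15 for MAP3K7. Without single arrays TNFRSF10B ranged from -0.055 to 0.023 and CASP8 from -0.23 to 0.035 at 12 h, and FADD from -0.20 to 0.048 at 48 h. The interaction of TNFRSF10A was -0.084 with the mean and -0.21 with the second probe set. With time in control the second probe set gave 0.053 for TNFRSF10A, -0.79 for CFLAR and 0.56 for CASP8, _x_at sets -0.37 for CFLAR, and the mean 0.27 for CASP8. Quantile normalization and centring gave 0.035 and 0.024 for TNFRSF1A, and 0.019 and 0.012 for CASP8. Without single arrays TNFRSF1A ranged from -0.072 to 0.047, FADD from -0.24 to 0.011 and CASP8 from -0.031 to 0.0085. The choice to allow _x_at probe sets was made after seeing the data.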
